A study of Homo sapiens with 18 samples.

Results

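The TAM receptors AXL, MERTK and TYRO3 and their ligands GAS6 and PROS1 were followed in Hec-1A and RL95-2, 2 human cell lines from endometrial cancer, under 3 treatments. They are 5 of the 20046 genes that the platform annotation names on the array. All 10 array probes it assigns to these 5 genes are described, of 47231 in all, with 2 probes for AXL, 2 for MERTK, 1 for TYRO3, 4 for GAS6 and 1 for PROS1. The gene family was chosen by the high AXL signal in Hec-1A against RL95-2 under control IgG, so differences between the lines are given as descriptions, with no test. The treatment comparisons and the differences between the lines in a treatment effect were tested. That choice used the control IgG arrays of both lines, and the comparisons with control IgG in each line use them again. So the AXL differences from control IgG are not independent of the choice. Neither are the differences between the lines in those AXL effects.

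The TAM receptors are receptor tyrosine kinases with immunoglobulin-like and fibronectin-like repeats outside the cell. Their ligands GAS6 and protein S, the product of PROS1, are vitamin K-dependent proteins whose carboxylated ends bind phosphatidylserine on dying cells and platelets, so that each ligand bridges such a membrane to a receptor. GAS6 binds all of the receptors, and protein S acts on TYRO3 and MERTK. In immune cells the receptors drive the engulfment of dying cells and dampen cytokine signalling, and in carcinomas AXL is known for its part in migration, invasion and drug tolerance.

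Each group held 3 arrays, labelled as Hec-1A with PDGF-AA + 3G3, Hec-1A with PDGF-AA, Hec-1A with control IgG, RL95-2 with PDGF-AA + 3G3, RL95-2 with PDGF-AA and RL95-2 with control IgG. Hec-1A and RL95-2 are established lines from endometrial carcinomas. PDGF-AA is a growth factor that signals through PDGF receptor alpha, and 3G3 is known as an antibody against that receptor. The labels name no antibody in the PDGF-AA groups, so the growth factor and the removal of control IgG cannot be told apart there, and the label of the combined groups ends in an unexplained number. The labels give neither dose nor time, and they do not say whether replicate arrays came from separate cultures, so the p-values measure the spread between these arrays, which may be technical. Each line stands for 1 tumour, and a difference between the lines is one between 2 tumours' descendants.

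Signals are log2 values that the authors had quantile-normalized, and every array had a median of 6.64. A level is compared only within a probe, never between probes. The 75th percentile of the unnormalized signal lay between 122.7 and 185.9 over the 18 arrays. Arrays of a line correlated at 0.952 or more with each other, and arrays of different lines at 0.939 or less. Replicate 1 of Hec-1A with control IgG stood apart from the rest, since without it the lowest correlation within a line was 0.984. All 5 epithelial markers were above the array median on all 18 arrays, and so was the Müllerian factor PAX8, but the hormone receptor genes ESR1 and PGR were above it on 1 and 0 of 9 Hec-1A arrays and on 0 of 9 RL95-2 arrays each. Of 5 macrophage and leukocyte markers only CD68 was above the median on every array, and the leukocyte marker PTPRC stayed between 6.53 and 6.70 in Hec-1A. The endothelial marker CDH5 was above the median on 0 of 9 Hec-1A arrays and 9 of 9 RL95-2 arrays. In the same order of lines PECAM1 was above it on 4 and 1, VWF on 0 and 0, and KDR on 1 and 1. COL1A1, a fibroblast marker, was above it on 8 of 9 Hec-1A arrays and 9 of 9 RL95-2 arrays. In that order COL1A2 was above it on 6 and 3, COL3A1 on 0 and 5, DCN on 4 and 4, LUM on 1 and 0, and PDGFRB on 0 and 1. The summed unnormalized signal of the 4 endothelial markers ran from 347.4 to 406.7 in Hec-1A and from 400.9 to 452.2 in RL95-2, and that of the 6 fibroblast markers from 519.6 to 612.1 in Hec-1A and from 586.6 to 672.8 in RL95-2. The part of such markers in the results was not tested.

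AXL had the widest gap between the lines among the members. The gene lies at chr19:41219223-41261766 in RefSeq's GRCh38.p14 annotation, from which all gene positions here are taken, and the position of each probe along the transcripts was not analysed here. The lead probe of each gene is the one with the highest mean over the 18 arrays, which for AXL is ILMN_1701877. In Hec-1A it read 11.81, 11.72 and 11.54 under PDGF-AA + 3G3, 11.93, 11.94 and 11.87 under PDGF-AA, and 12.15, 12.02 and 12.25 under control IgG. In RL95-2 the same probe read 6.85, 6.94 and 6.92 under PDGF-AA + 3G3, 6.93, 6.91 and 6.92 under PDGF-AA, and 6.99, 7.15 and 7.09 under control IgG. All 9 Hec-1A arrays were therefore far above all 9 RL95-2 arrays, which sat just above the array median. The mean difference, Hec-1A minus RL95-2, was 4.79 under PDGF-AA + 3G3 (27.7-fold), 4.996 under PDGF-AA (31.9-fold) and 5.06 under control IgG (33.4-fold). No background was subtracted from these signals, so a fold against a dim group is understated.

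The second AXL probe, ILMN_2364521, gave the same order of the lines. Its Hec-1A arrays read 11.21, 11.10 and 11.07 under PDGF-AA + 3G3, 11.27, 11.33 and 11.17 under PDGF-AA, and 12.14, 11.36 and 11.82 under control IgG. The RL95-2 arrays lay between 6.58 and 7.04, and 1 of the 9 was at or below the array median. The line difference of this probe was 4.31 under PDGF-AA + 3G3, 4.38 under PDGF-AA and 4.83 under control IgG. The control IgG arrays of Hec-1A were spread more widely on this probe (11.77 ± 0.39, SD, n = 3) than on the lead probe (12.14 ± 0.11, SD, n = 3).

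**Figure D1:**
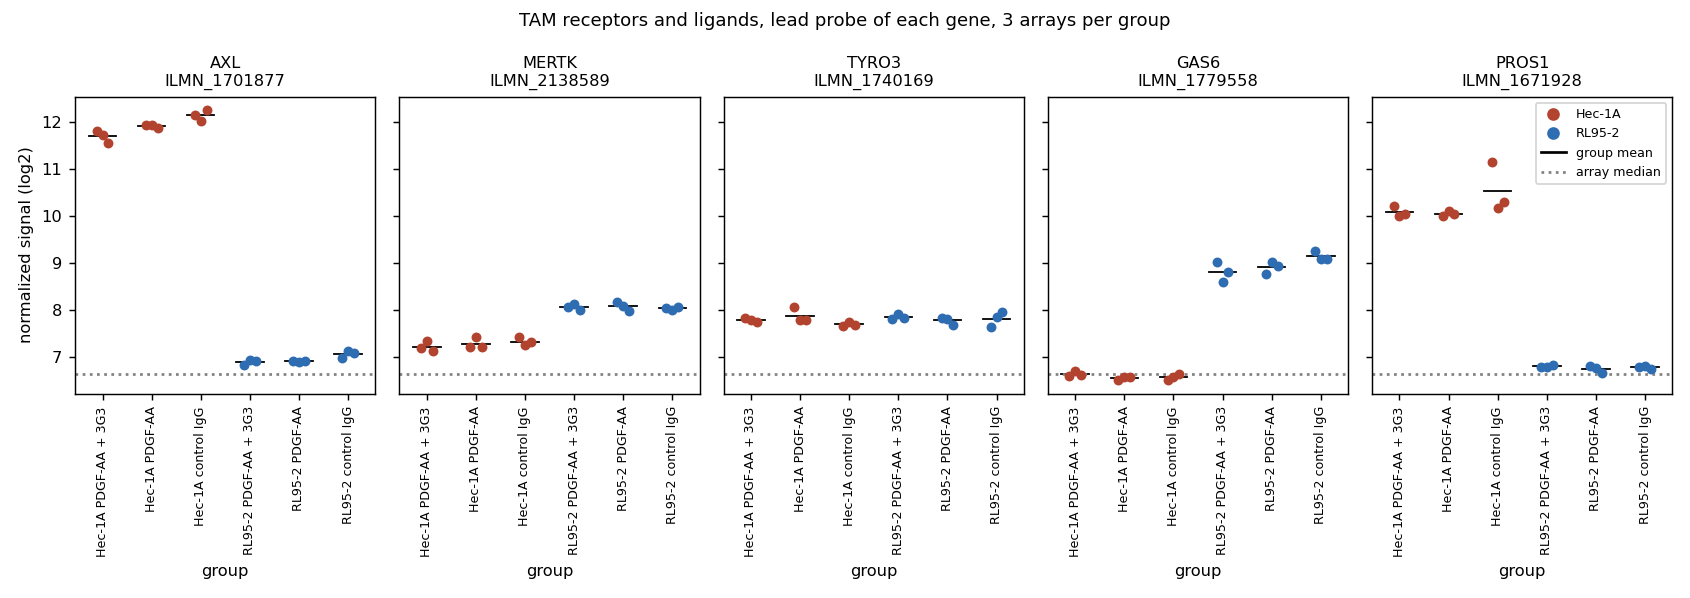
Normalized log2 signal of the lead probe of each gene (vertical axis) on 3 arrays per group, with Hec-1A in red and RL95-2 in blue, black lines for group means and a dotted line at the array median of 6.64. AXL and PROS1 are high in Hec-1A and near the dotted line in RL95-2, GAS6 is the other way round, and TYRO3 overlaps between the lines.

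MERTK, the receptor best known from macrophages and the retinal pigment epithelium, was lower in Hec-1A. It lies at chr2:111898607-112029561. The lead probe, ILMN_2138589, read 7.21, 7.36 and 7.13 in Hec-1A under PDGF-AA + 3G3, against 8.08, 8.13 and 8.01 in RL95-2 under the same treatment. It read 7.22, 7.42 and 7.23 in Hec-1A under PDGF-AA, against 8.18, 8.08 and 7.99 in RL95-2 under PDGF-AA. It read 7.42, 7.26 and 7.32 in Hec-1A under control IgG, against 8.05, 8.0 and 8.07 in RL95-2 under control IgG. The lines did not overlap on this probe under any treatment. Hec-1A minus RL95-2 was -0.84, -0.80 and -0.71 in that order of treatments, a signal 1.79-fold, 1.74-fold and 1.63-fold lower in Hec-1A. The second probe, ILMN_1770610, was dimmer, at 6.72 to 6.95 in Hec-1A and 6.92 to 7.17 in RL95-2, and its line differences were -0.32, -0.15 and -0.21. Over all 9 arrays per line the second probe overlapped between the lines, while within each treatment it did not.

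TYRO3, at chr15:41559212-41583589, was the receptor with no clear gap between the lines. Its only probe, ILMN_1740169, read 7.83, 7.80 and 7.74 in Hec-1A and 7.82, 7.93 and 7.84 in RL95-2 under PDGF-AA + 3G3. Under PDGF-AA it read 8.07, 7.78 and 7.80 in Hec-1A and 7.84, 7.81 and 7.70 in RL95-2. Under control IgG it read 7.66, 7.76 and 7.69 in Hec-1A and 7.64, 7.86 and 7.97 in RL95-2. The lines overlapped under each treatment. Hec-1A minus RL95-2 was -0.07 under PDGF-AA + 3G3, 0.10 under PDGF-AA and -0.12 under control IgG. In the control IgG comparison the sign turned to 0.095 when the arrays were left without normalization. All neighbouring group means in the order of levels had overlapping arrays. A pseudogene, TYRO3P, lies elsewhere on the same chromosome, and whether the probe also reads it was not tested.

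The 2 ligands pointed in opposite directions. GAS6, at chr13:113820549-113864076, was near the array median in Hec-1A and well above it in RL95-2 on its lead probe. The lead probe, ILMN_1779558, read 6.61, 6.71 and 6.62 in Hec-1A and 9.02, 8.60 and 8.82 in RL95-2 under PDGF-AA + 3G3. Under PDGF-AA it read 6.52, 6.59 and 6.59 in Hec-1A and 8.77, 9.03 and 8.95 in RL95-2, and under control IgG 6.53, 6.59 and 6.65 in Hec-1A and 9.26, 9.09 and 9.10 in RL95-2. Of the 9 Hec-1A arrays 2 were above the array median, against 9 of 9 in RL95-2. Under PDGF-AA + 3G3 Hec-1A minus RL95-2 was -2.17, and no fold is given, since 2 of the 3 Hec-1A arrays did not exceed the median. Where the Hec-1A mean did not exceed the array median, its arrays were raised to at least that median and the fold is a lower bound, at least 4.85-fold lower under PDGF-AA and at least 5.68-fold lower under control IgG.

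The other GAS6 probes differed in how large a gap they showed. ILMN_1784749 did not exceed the array median on any of the 9 Hec-1A arrays and read 8.63 to 9.22 in RL95-2, so that Hec-1A was at least 4.53-fold lower under PDGF-AA + 3G3, at least 4.65-fold under PDGF-AA and at least 5.44-fold under control IgG. ILMN_1768260 read 6.34 to 6.53 in Hec-1A and 6.75 to 7.07 in RL95-2, which made Hec-1A at least 1.18-fold, 1.14-fold and 1.24-fold lower in the same order. ILMN_1781614 overlapped between the lines, at 6.41 to 6.64 in Hec-1A and 6.36 to 6.66 in RL95-2, and was above the median on only 2 of 18 arrays, both in RL95-2. It was the 1 member probe that did not pass the filter for testing, so 9 of 10 were tested. A long non-coding gene, GAS6-AS1, overlaps GAS6 in the annotation, and whether the probes tell the transcripts apart was not tested.

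PROS1, which encodes protein S, was high in Hec-1A. It lies at chr3:93873051-93973896, and a pseudogene copy, PROS2P, lies on the same chromosome, which the probe was not tested against. ILMN_1671928 read 10.22, 9.99 and 10.05 in Hec-1A and 6.80, 6.79 and 6.84 in RL95-2 under PDGF-AA + 3G3. Under PDGF-AA it read 9.99, 10.11 and 10.04 in Hec-1A and 6.82, 6.77 and 6.67 in RL95-2, and under control IgG 11.14, 10.18 and 10.31 in Hec-1A and 6.80, 6.82 and 6.76 in RL95-2. All Hec-1A arrays were above all RL95-2 arrays, and the highest was replicate 1 under control IgG, the array that stood apart. Hec-1A minus RL95-2 was 3.28 under PDGF-AA + 3G3 (9.69-fold), 3.29 under PDGF-AA (9.79-fold) and 3.75 under control IgG (13.4-fold), the last being 3.45 without that array. Hec-1A thus had high AXL and PROS1 signals with GAS6 near or below the array median, and RL95-2 had the higher GAS6 and MERTK signals.

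**Figure D2:**
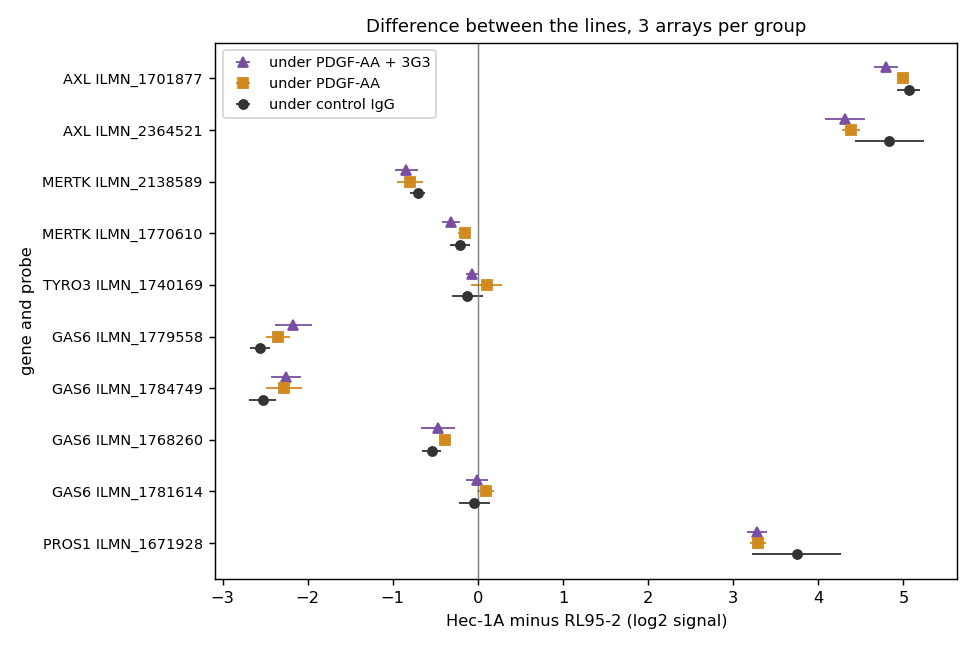
Hec-1A minus RL95-2 in log2 signal (horizontal axis) for all 10 probes under PDGF-AA + 3G3, PDGF-AA and control IgG, as the difference of means of 3 arrays each, with bars for the root of the summed squared SDs. Both AXL probes lie beyond 4 and PROS1 beyond 3 on the log2 scale, while 2 GAS6 probes lie below -2 and the other 2 near 0.

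The stretches upstream of the transcription starts are shown for the genes with the largest gaps between the lines, AXL, GAS6 and PROS1. AXL has 2 annotated starts, and the arrays do not tell which was used. Each stretch is the 250 bases before the start on the gene's strand, from RefSeq, build GRCh38.p14. Capitals mark matches to the GC box GGGCGG bound by Sp1 and Sp3, the AP-1 motif TGANTCA and the TEAD motif GGAATG, searched on both strands.
AXL, first start, chr19:41218973-41219222, plus strand: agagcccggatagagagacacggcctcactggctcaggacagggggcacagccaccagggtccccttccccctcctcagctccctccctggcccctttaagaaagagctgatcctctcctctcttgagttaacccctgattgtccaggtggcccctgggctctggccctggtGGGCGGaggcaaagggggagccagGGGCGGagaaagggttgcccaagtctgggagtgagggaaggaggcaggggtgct
AXL, second start, chr19:41226505-41226754, plus strand: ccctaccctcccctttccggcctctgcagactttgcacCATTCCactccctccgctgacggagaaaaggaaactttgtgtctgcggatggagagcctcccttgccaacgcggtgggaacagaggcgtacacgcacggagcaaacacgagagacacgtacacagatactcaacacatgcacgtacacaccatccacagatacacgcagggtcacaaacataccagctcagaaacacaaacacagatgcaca
GAS6, chr13:113864077-113864326, minus strand: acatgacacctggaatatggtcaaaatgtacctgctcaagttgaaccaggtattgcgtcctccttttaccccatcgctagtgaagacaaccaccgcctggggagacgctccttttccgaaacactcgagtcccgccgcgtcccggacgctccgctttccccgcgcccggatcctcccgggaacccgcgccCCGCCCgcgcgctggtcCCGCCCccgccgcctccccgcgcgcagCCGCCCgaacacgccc
PROS1, chr3:93973897-93974146, minus strand: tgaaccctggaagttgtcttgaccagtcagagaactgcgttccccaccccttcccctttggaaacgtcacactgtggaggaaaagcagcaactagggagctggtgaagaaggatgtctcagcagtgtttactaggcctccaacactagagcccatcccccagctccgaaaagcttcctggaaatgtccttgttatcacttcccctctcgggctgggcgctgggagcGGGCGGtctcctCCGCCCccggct
The first AXL start had 2 GC boxes, the nearest ending 48 bases before the start, and its second start had none of these but 1 TEAD motif, read on the minus strand. GAS6 had 3 GC boxes and PROS1 had 2. Among the genes not printed, MERTK had 4 GC boxes, and TYRO3 had 3 with 1 AP-1 motif before its first start and no match before its second. No matches overlapped. Of all 35116 promoters given for the build, 42.6% held a GC box, 6.57% the AP-1 motif and 11.9% the TEAD motif. The number of CpG pairs was 4 before the first AXL start, 13 before the second, 31 in GAS6 and 9 in PROS1, against a median of 11.0 over all promoters. A match describes the letters only, and no binding or methylation was measured in these cells.

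The treatment differences of AXL, GAS6 and PROS1 were far smaller than their differences between the lines, while those of TYRO3 were of the same size. No member probe passed the threshold in any of the 6 treatment comparisons (limma, Benjamini-Hochberg adjusted p below 0.05 over all 32070 tested probes). The comparisons with control IgG in a line share the same control arrays. In Hec-1A, 0 of 9 member probes were called for PDGF-AA + 3G3 against control IgG, where 0.00312% of all probes were, 0 of 9 for PDGF-AA against control IgG, where 0% were, and 0 of 9 for PDGF-AA + 3G3 against PDGF-AA, where 0% were. At an unadjusted p below 0.05 those counts were 3, 4 and 1 of the members, and 6565, 6736 and 1308 of all probes. In RL95-2 the members called were 0 of 9 for PDGF-AA + 3G3 against control IgG (0% of all probes), 0 of 9 for PDGF-AA against control IgG (0.00624%) and 0 of 9 for PDGF-AA + 3G3 against PDGF-AA (0.00312%). There, 3, 3 and 0 members and 3017, 1822 and 1012 of all probes had an unadjusted p below 0.05.

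AXL in Hec-1A came closest. The lead probe averaged 11.69 ± 0.13 under PDGF-AA + 3G3, 11.91 ± 0.03 under PDGF-AA and 12.14 ± 0.11 under control IgG (SD, n = 3 each), and no 2 of these groups had overlapping arrays. PDGF-AA + 3G3 minus control IgG was -0.45 on the log2 scale (95% interval -0.59 to -0.30, limma adjusted p = 0.062), a signal change of -26.7%. PDGF-AA minus control IgG was -0.23 (SE 0.069, limma adjusted p = 0.12), and PDGF-AA + 3G3 minus PDGF-AA was -0.22 (SE 0.069, adjusted p = 1). On the second probe PDGF-AA + 3G3 minus control IgG was -0.64 (95% interval -0.95 to -0.34, limma adjusted p = 0.062), with all 3 treated arrays below all 3 control arrays. Its PDGF-AA minus control IgG was -0.52 (SE 0.145, limma adjusted p = 0.11), also with no overlap. Its PDGF-AA + 3G3 minus PDGF-AA was only -0.13 (95% interval -0.43 to 0.18), and those arrays overlapped. The lead probe's difference from control IgG passed the threshold without replicate 2 of Hec-1A with control IgG (-0.51, limma adjusted p = 0.0034) or without replicate 2 of Hec-1A with PDGF-AA (-0.45, adjusted p = 0.042), and it did not without replicate 1 of Hec-1A with control IgG (-0.44, adjusted p = 0.099). The second probe's difference passed without replicate 2 of Hec-1A with control IgG (-0.85, limma adjusted p = 0.0032), and without replicate 1 it was -0.46 (adjusted p = 0.16). Without replicate 2 of Hec-1A with control IgG, 12.3% of all probes passed in that comparison. That array was the lowest of the 3 control arrays on both AXL probes, at 12.02 and 11.36, so leaving it out had to widen the fall. The control arrays also took part in the choice of the family, so these calls are not independent support.

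In RL95-2, where AXL was dim, the lead probe averaged 6.90 ± 0.05 under PDGF-AA + 3G3, 6.92 ± 0.01 under PDGF-AA and 7.08 ± 0.08 under control IgG (SD, n = 3 each). PDGF-AA + 3G3 minus control IgG was -0.17 (95% interval -0.32 to -0.03, limma adjusted p = 0.48) and PDGF-AA minus control IgG was -0.16 (SE 0.069, adjusted p = 0.87). On the second probe these were -0.12 (95% interval -0.43 to 0.185) and -0.07 (95% interval -0.37 to 0.24). Its arrays overlapped in both comparisons. The difference of the PDGF-AA + 3G3 effect against control IgG, Hec-1A minus RL95-2, was -0.27 on the lead probe (95% interval -0.48 to -0.07, limma adjusted p = 0.13) and -0.52 on the second (adjusted p = 0.16). Without replicate 2 of Hec-1A with control IgG the 2 probes gave -0.33 (limma adjusted p = 0.043) and -0.73 (adjusted p = 0.016). The share of all probes that passed there was not counted, so nothing is read from these calls.

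PROS1 in Hec-1A averaged 10.09 ± 0.12 under PDGF-AA + 3G3, 10.04 ± 0.06 under PDGF-AA and 10.54 ± 0.52 under control IgG (SD, n = 3 each). Its 3 PDGF-AA arrays were all below the 3 control arrays, whereas the PDGF-AA + 3G3 arrays overlapped them. PDGF-AA minus control IgG was -0.50 (95% interval -0.84 to -0.15, limma adjusted p = 0.12) and PDGF-AA + 3G3 minus control IgG was -0.45 (95% interval -0.80 to -0.11, adjusted p = 0.13). These sizes rested on 1 array: without replicate 1 of Hec-1A with control IgG they were -0.20 and -0.15 (limma adjusted p = 0.41 and 0.47). Without replicate 2, the lowest of the 3 control arrays, they were -0.68 and -0.63 (limma adjusted p = 0.017 for each). In RL95-2 both differences lay between -0.04 and 0.02. The probe read only 6.67 to 6.84 there, just above the array median of 6.64, so a fall could be hidden.

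GAS6 differences under treatment could be read only in RL95-2, since in Hec-1A the probes were at or near the array median. The lead probe averaged 8.81 ± 0.21 under PDGF-AA + 3G3, 8.92 ± 0.14 under PDGF-AA and 9.15 ± 0.10 under control IgG (SD, n = 3 each). On this probe all treated arrays of both groups were below the 3 control arrays. PDGF-AA + 3G3 minus control IgG was -0.33 (95% interval -0.53 to -0.14, limma adjusted p = 0.44), and PDGF-AA minus control IgG was -0.23 (SE 0.091, adjusted p = 0.85). The second probe gave -0.26 and -0.23 (limma adjusted p = 0.47 and 0.88), and its treated arrays overlapped the control arrays in both comparisons. The third tested probe, ILMN_1768260, gave -0.06 and -0.12 (limma adjusted p = 0.82 and 0.89). The difference between the lines in these effects is not read for GAS6, since its Hec-1A side lay near or below the array median.

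The remaining receptors gave smaller differences. TYRO3 in Hec-1A was 0.18 above control IgG under PDGF-AA (95% interval 0.003 to 0.365, limma adjusted p = 0.23), with 1 of the 3 treated arrays, at 8.07, well above the other two. Its other 5 treatment differences lay between -0.10 and 0.09. The 2 MERTK probes ranged from -0.11 to 0.13 over the 6 treatment comparisons, with limma adjusted p between 0.46 and 1. In the 3 tests of a difference between the lines, 0 of 9 member probes were called, where 0.00312% of all probes were for the PDGF-AA effect, 0% for the 3G3 effect and 0% for PDGF-AA + 3G3 against control IgG. At an unadjusted p below 0.05 the members numbered 1, 0 and 3 of 9, against 6385, 889 and 6942 of the 32070 probes. An interval that holds 0 does not show that a treatment left a gene as it was, and the median 95% interval for a difference of 2 groups over all tested probes reached 0.162 either side.

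**Figure D3:**
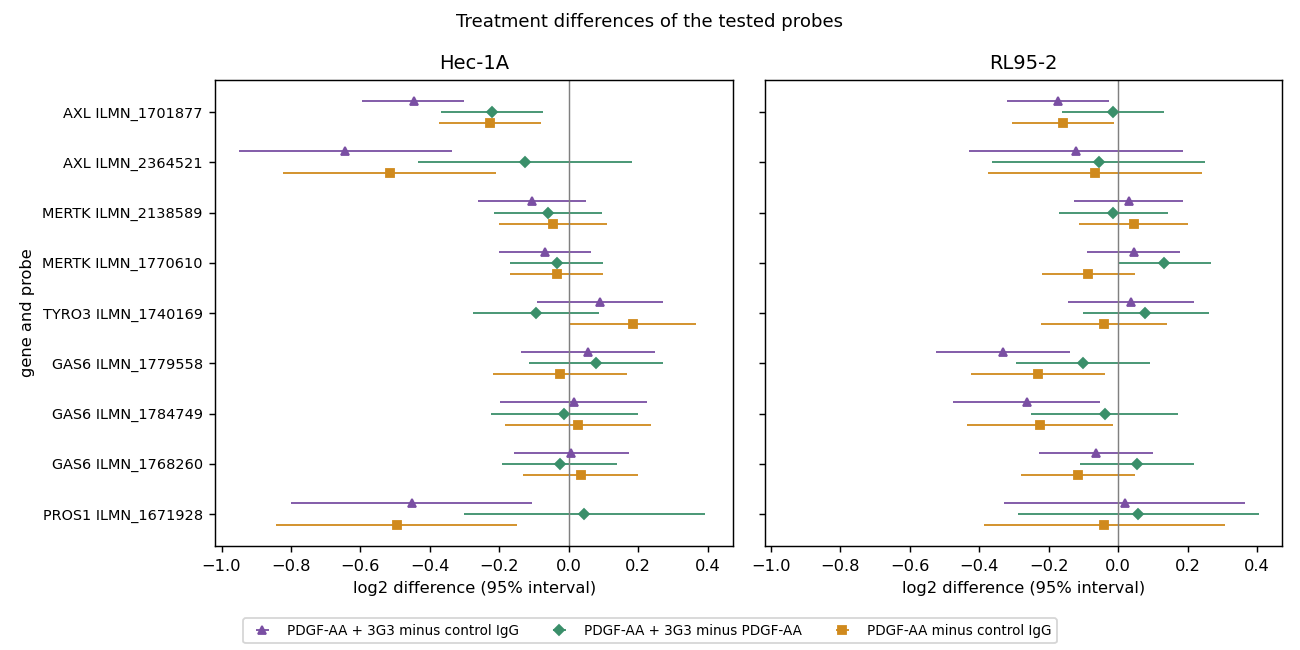
Treatment differences in log2 signal with 95% intervals from limma (horizontal axis) for the 9 tested member probes, Hec-1A on the left and RL95-2 on the right, with PDGF-AA + 3G3 minus control IgG, PDGF-AA + 3G3 minus PDGF-AA, and PDGF-AA minus control IgG in each row. Against control IgG the point estimates of both AXL probes and PROS1 lie below 0 in Hec-1A. So do those of both AXL probes and 3 GAS6 probes in RL95-2, where the intervals of AXL ILMN_2364521 and GAS6 ILMN_1768260 hold 0. None passed the adjusted threshold.

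The other genes of the pathway were counted in 8 lists with 84 genes, of which 79 were matched on the array and 76 were tested by their lead probe. Under control IgG 22 of the 76 were higher and 25 lower in Hec-1A than in RL95-2 (limma, adjusted p below 0.05), where 22.9% of all 15360 genes were higher and 23.1% lower. This is the contrast the family was chosen from, and the lists were chosen with earlier results of these data known. So nothing is read from those counts. The counts per list and the adjusted p-values of single genes below are descriptions too. Without replicate 1 of Hec-1A with control IgG the counts on the same probes were 21 and 22, with 8 of the 47 calls lost and 4 gained. The median difference over all genes was 0.

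Among the genes that mature the ligands, 1 of 4 was higher and 1 lower in Hec-1A, with a median of 0.13. VKORC1, which recycles vitamin K for the carboxylation of GAS6 and protein S, was lower, at -1.805 on the log2 scale (SE 0.19, limma adjusted p = 1e-06). CALU, calumenin, an inhibitor of that system, was 0.84 higher (SE 0.25, limma adjusted p = 0.014), and 0.56 without replicate 1 of Hec-1A with control IgG (adjusted p = 0.068). Of 3 genes of receptor shedding, ADAM10, a sheddase that cuts AXL, was 1.35 higher (SE 0.31, limma adjusted p = 0.0024). TIMP3, an inhibitor of such proteases, was below the array median in Hec-1A and at least 3.27-fold lower. The sheddase ADAM17 was at -0.27 (limma adjusted p = 0.025), and -0.24 without the same array (adjusted p = 0.074).

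For phosphatidylserine exposure and engulfment, 7 of 14 tested genes were higher and 4 lower in Hec-1A, with a median of 0.41. GULP1, an engulfment adaptor, was 2.41 higher (SE 0.12), MFGE8, a bridging protein that binds phosphatidylserine, was 1.72 higher (SE 0.14), and ANO6, a scramblase that exposes it, was 1.23 higher (SE 0.23). ITGB3, the integrin subunit that binds MFGE8 together with the alpha V chain, was at least 3.69-fold higher. LGALS3, galectin 3, a reported MERTK ligand, was lower, at -1.82 (SE 0.18). The integrin subunit ITGB5 was at -0.45, the engulfment adaptor ELMO1 at -0.38 and the scramblase XKR8 at -0.22. ELMO2, the relative of ELMO1, was 0.42 higher. XKR8 lost its call without replicate 1 of Hec-1A with control IgG (-0.17, limma adjusted p = 0.12). Among the higher genes, ITGAV at 1.58 and RAC1 at 0.40 also lost their calls without that array. There they were at 0.815 and 0.21 (limma adjusted p = 0.1 and 0.079).

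Of 16 tested adaptors and effectors that bind the kinases, 4 were higher and 2 lower, with a median of 0.17. VAV3, a guanine nucleotide exchange factor, had the largest difference among all 76 genes and was at least 14.7-fold lower in Hec-1A, where its mean was 6.50 ± 0.07, against 10.52 ± 0.04 in RL95-2 (SD, n = 3 each). Its relative VAV1 was 0.44 higher, the ubiquitin ligase CBL 0.94 higher and the adaptor GRB2 0.59 higher, while the adaptor SHC1 was at -0.42. RANBP9 was 0.30 higher (limma adjusted p = 0.042) and lost its call without replicate 1 of Hec-1A with control IgG (adjusted p = 0.19). Of 6 cytokine suppression partners none was higher and 3 were lower. They were IFNAR2, an interferon receptor chain, at -0.40, and SOCS1 and SOCS3, inhibitors of cytokine signalling. The means of SOCS1 and SOCS3 were below the array median in Hec-1A and at least 1.12-fold and 1.10-fold lower.

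Among 17 genes known to regulate AXL transcription, 5 were higher and 6 lower, with a median of 0.09. TEAD2, a DNA-binding partner of YAP, was 1.74 higher (SE 0.10), and WWTR1, which encodes the YAP relative TAZ, was 1.16 higher (SE 0.07). TEAD3 and TEAD4 went the other way, at -0.94 and -0.71. The AP-1 subunits were split too, with FOS 0.40 and FOSL1 0.38 higher, JUNB at -0.93 and JUN at -0.42. EPAS1, which encodes HIF2-alpha, was at -1.68, while HIF1A was 0.82 higher. Without replicate 1 of Hec-1A with control IgG, HIF1A was 0.39 higher. MZF1, at -0.41, lost its call without replicate 1 of Hec-1A with control IgG (-0.28, limma adjusted p = 0.14). Of 9 YAP and TEAD target genes, 3 were higher and 3 lower. F3, tissue factor, was 2.29 higher, CCN1 0.82 and LATS2 0.33 higher, against -1.05 for CRIM1, -0.77 for DKK1 and -0.21 for ANKRD1.

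Of 7 tested receptors that partner with AXL, 1 was higher and 4 were lower in Hec-1A. MET, the hepatocyte growth factor receptor, was 1.61 higher (SE 0.23, limma adjusted p = 3.3e-05). ERBB3 was at -1.11, EGFR at -0.71 and ERBB2 at -0.37. IL15RA was at -0.24 (limma adjusted p = 0.018), with overlapping arrays, and at -0.15 without replicate 1 of Hec-1A with control IgG (adjusted p = 0.11).

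**Figure D4:**
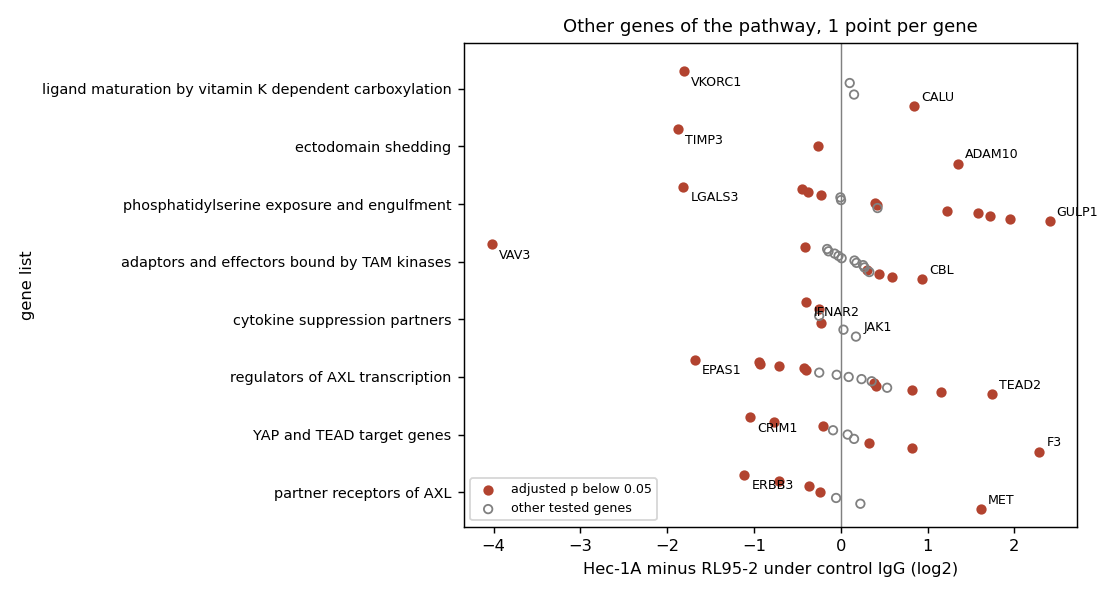
Hec-1A minus RL95-2 under control IgG in log2 signal (horizontal axis) for the 76 tested pathway genes, 1 point per gene, grouped by list, with filled points where the limma adjusted p was below 0.05 and open points otherwise. VAV3, TIMP3, SOCS1, SOCS3, TNS2 and LCK in Hec-1A, ITGB3 and JAK1 in RL95-2 and ATP11A in both lines were at or below the array median, so their points are fitted values and not bounds, and most lists hold filled points on both sides of 0.

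None of the 76 pathway genes passed the threshold in any of the 6 treatment comparisons (limma, adjusted p of 0.062 or more). At an unadjusted p below 0.05 there were 21 for PDGF-AA + 3G3 against control IgG in Hec-1A, 29 for PDGF-AA against control IgG and 2 for PDGF-AA + 3G3 against PDGF-AA, against 6565, 6736 and 1308 of all 32070 probes. In RL95-2 the same counts were 11, 6 and 1, against 3017, 1822 and 1012 of all probes. Pathway counts under treatment, here and below, are per gene on its lead probe. The counts and shares of all probes beside them include second probes and probes without a gene symbol. The share over the lead probes of all genes was not counted for the treatments, so no excess is read from these numbers. The smallest adjusted p in Hec-1A, 0.062 for PDGF-AA + 3G3 against control IgG, was shared by GULP1, at -0.53, and LGALS3, at 0.80. Without replicate 2 of Hec-1A with control IgG, 34 calls were made over the 6 comparisons, where 12.3% of all probes were called for PDGF-AA + 3G3 and 11.7% for PDGF-AA against control IgG in Hec-1A.

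The genes whose pattern over the 18 arrays was most like each member were found by the root mean square difference of log2 values centred on each probe's own mean, among 15359 other genes. Nearest to AXL was TM4SF4, at 0.172 log2 units, with a mean of 11.46 in Hec-1A and 6.45 in RL95-2. It was followed by its relative TM4SF1 at 0.35, the surface peptidase DPP4 at 0.394, the membrane protein gene TMCO1 at 0.397 and the synaptotagmin gene SYT13 at 0.402. Nearest to PROS1 were BCHE, butyrylcholinesterase, at 0.159, DCBLD2 at 0.159 and ANXA3, annexin A3, at 0.164. For GAS6 they were LRRC41 at 0.09, TRIM4 at 0.093 and KCNG1 at 0.096, and for MERTK ERLIN2 at 0.071, CD83 at 0.082 and HEATR1 at 0.088. The nearest to TYRO3, NUDT4B, GAPT and VCAM1 at 0.077 to 0.078, had means at or below the array median in both lines, so that likeness amounts to a flat pattern. These genes were picked for the likeness, which is given as a description.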

How the data were processed

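Total RNA from the 18 samples was labelled as biotin cRNA and hybridised to Illumina bead arrays. The authors deposited an intensity table, exported with BeadStudio per the submitters' processing notes, and a table of log2 values. Those log2 values, deposited by the authors, differed by at most 0.0438 from a quantile normalization of the log2 intensity, and no background was subtracted. Detection p-values were not used. Of 47231 probes 30113 carried 1 gene symbol, 8 several and 17110 none.

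The log2 values were analysed. A probe was tested where 3 or more arrays exceeded their median, and 32070 (67.9%) were. Group means of the 6 groups were modelled by limma 3.58.1 (R 4.3.3; residual degrees of freedom 12, prior 3.61), and p-values were adjusted over all tested probes by Benjamini-Hochberg at 0.05. A group mean at or below the array median gave a bound. The script was tested on simulated data. Figures used Python 3.11.15 and matplotlib 3.10.9.

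The members, gene lists and tests were chosen with earlier results of these data known. The text names all member probes and, per list, the genes called between the lines under control IgG. It also names the 5 genes most like AXL and the 3 most like each other member. A small number of arrays limits the precision. Alternatives covered the data source, normalization, background correction, filter, variance model, array weights, replicate block and leaving out each array.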

Additional observations from a re-analysis of the deposited data

How the results depend on the processing

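Background correction and scaling changed the size of the line differences under control IgG, Hec-1A minus RL95-2, and turned 1 sign. With no normalization between arrays, AXL was 5.2, MERTK -0.529 and TYRO3 0.095, the last with its sign turned, and with a common median MERTK was -0.623. That setting without normalization also shifted the median of all tested probes by 0.109 in this contrast and by -0.119 for PDGF-AA against control IgG in Hec-1A. With normexp at an offset of 16, AXL was 6.037, MERTK -1.066, GAS6 -4.028 and PROS1 5.02, and at an offset of 50 AXL was 5.452, MERTK -0.847 and GAS6 -3.048. Leaving out 1 array at a time gave 5.009 to 5.121 for AXL, -0.75 to -0.67 for MERTK, -0.217 to -0.048 for TYRO3, -2.589 to -2.502 for GAS6 and 3.448 to 3.93 for PROS1.

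Member calls under treatment, 0 over all comparisons, were 2 with a filter at the 75th percentile, 2 with an intensity trend and robust variance and 5 with array weights. With the weights, 14.7% of all probes passed for PDGF-AA against control IgG in Hec-1A. Leaving out 1 array gave 0 to 6, with 6 without replicate 2 of Hec-1A with control IgG and 1 without replicate 2 of Hec-1A with PDGF-AA. For PDGF-AA + 3G3 against control IgG in Hec-1A, 12.3% and 0.657% of all probes passed without these arrays. Without that control array 11.7% passed for PDGF-AA against control IgG. Member calls for differences between the lines, also 0, were 4 with array weights and 0 to 3 without 1 array. The share of all probes called for these differences was not counted in the settings with calls, so nothing is read from them. Those with array weights included the GAS6 lead probe (0.383, limma adjusted p = 0.031), whose Hec-1A side lay near or below the array median. For PDGF-AA + 3G3 against control IgG in Hec-1A, AXL was among the treatment calls with the filter, the trend and the weights. It was also called there without replicate 2 of Hec-1A with control IgG or with PDGF-AA. The limma adjusted p of its lead probe was 0.043 under the filter, 0.041 under the trend and 0.0012 under the weights. In those settings 6.76%, 0.801% and 11.7% of all probes passed. Over its 29 alternatives the AXL lead probe's difference passed the threshold in 5, with limma adjusted p from 0.0012 to 0.26. It kept its sign in 29, between -0.581 and -0.374. The alternatives share most of their arrays, among them control arrays of the choice, so the kept sign is not independent support. The cause was not tested.

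Pathway genes lower in Hec-1A numbered 25, and 11 without normalization. With each gene's lead probe chosen again, leaving out 1 array gave 19 to 25 genes higher and 19 to 25 lower. Pathway calls under treatment, 0 in all, were 6 with the filter, 2 with the trend, 34 with array weights and 0 to 34 without 1 array. For PDGF-AA + 3G3 against control IgG in Hec-1A, 6.76%, 0.801% and 11.7% of all probes passed with the filter, trend and weights. For PDGF-AA against control IgG in Hec-1A, 14.7% passed with the weights. Without replicate 2 of Hec-1A with control IgG, which gave the highest count, 12.3% and 11.7% passed in these comparisons.

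Replicate numbers did not pair the arrays, since the correlation of same-numbered deviations ran from -0.69 to 0.319 and exceeded 0.1 in 4 of 18 pairs. With the replicate block, 0 member probes were called under treatment and 0 for differences between the lines, and pathway genes between the lines were 17 higher and 21 lower.

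Dim groups limit what can be read. GAS6 and VAV3 in Hec-1A were near or below the array median, so the GAS6 differences above are measured against a dim group and are not sizes of a change. With 3 arrays per group, differences inside the intervals given stay undetected.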
